A study of Mus musculus with 16 samples.

Results

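The genes described here are 7 genes of MHC class I antigen presentation, H2-K1, H2-D1, B2m, Tap1, Tap2, Tapbp and Nlrc5. They were taken by their symbols from the 18580 genes that had a symbol in the expression tables of macrophages and microglia sorted from mouse brain. All 7 were detected in every one of the 16 libraries.

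MHC class I molecules show peptides from inside the cell to CD8 T cells and are read by receptors of NK and myeloid cells. The heavy chains H2-K and H2-D (H2-K1 and H2-D1) bind β2-microglobulin (B2m) in the endoplasmic reticulum, where the peptide transporter of TAP1 and TAP2 brings in peptides from the cytosol and tapasin (Tapbp) bridges the transporter to the empty heavy chain. NLRC5 is the transactivator of the class I genes and acts together with factors bound to the X and Y boxes of their promoters, and interferons raise the whole pathway. Microglia of the healthy brain carry low class I levels on their surface, and reactive myeloid cells carry more.

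The mice were CD163KO mice, which carry the CD163tm1.1(KOMP)Vlcg allele in all cells, and their C57BL/6N wild-type (WT) littermates, of both sexes, 3-4 months old and 12 weeks old at surgery. Each had received a bilateral injection of α-synuclein (α-syn) into the striatum, either monomeric (MONO, the control protein) or as pre-formed fibrils (PFF, which seed aggregation), so every group was injected, and cells were isolated 2 months post-injection (p.i.). Microglia were sorted as CD11b+ cells with low or intermediate CD45 and macrophages as CD11b+ cells with high CD45, a gate that, besides border-associated and infiltrating macrophages, takes in neutrophils and NK cells. Between 4 and 7 mice were injected per group, and 10000 to 30000 macrophages against 200000 to 500000 microglia entered the RNA preparations. Each group of sex, genotype and treatment had 1 library per population, which made 8 libraries of macrophages and 8 of microglia. The labels speak of triplicates and do not say how these entered the tables, so the spread between libraries holds an unknown technical part. The study left CD163KO males given MONO out of its analysis, and they were left out of the fits here, while their levels are shown.

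Of the 7 genes, 5 lie in the MHC region of chromosome 17. In GRCm38.p6 coordinates, Tapbp lies at chr17:33919478-33929290, H2-K1 at chr17:33996012-34000619, Tap1 at chr17:34187556-34197225, Tap2 at chr17:34204479-34216321 and H2-D1 at chr17:35263094-35267497. B2m lies at chr2:122147687-122153082 and Nlrc5 at chr8:94434335-94527272. Promoter sequence from RefSeq, 250 bases before to 50 bases after a transcript start, was at hand for 5 of the 7 genes (all but Tap2 and Nlrc5). The stretches shown are those of the heavy chains and of B2m, since these genes led the difference between the populations described further on. They lie upstream of the starts that the table lists, and that of H2-K1 is on the minus strand, inside the outer limits of the gene. Capitals mark letters that a search of both strands found. GGGGANTCCCC is the κB site of enhancer A, which NF-κB binds, GAAANNGAAA is the core of an interferon response element, TGACG is the core of the X2 box, and ATTGG is the inverted CCAAT of the Y box.
H2-K1: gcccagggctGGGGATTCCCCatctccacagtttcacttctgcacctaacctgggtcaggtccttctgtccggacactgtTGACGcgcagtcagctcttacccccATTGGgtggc
H2-D1: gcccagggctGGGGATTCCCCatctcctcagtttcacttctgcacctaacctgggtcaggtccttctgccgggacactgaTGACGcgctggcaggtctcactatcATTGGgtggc
B2m: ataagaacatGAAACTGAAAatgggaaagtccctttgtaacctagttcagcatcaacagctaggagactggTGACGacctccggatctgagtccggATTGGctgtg

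The H2-K1 stretch is chr17:34000354-34000468 (minus strand, bases -135 to -21 from the second of its 2 listed starts), that of H2-D1 is chr17:35262913-35263027 (plus strand, bases -181 to -67) and that of B2m is chr2:122147538-122147643 (plus strand, bases -149 to -44). H2-K1 and H2-D1 shared 104 of 115 bases (90.4%), with no gap and with the 3 marked elements at the same distances from each other. The κB letters, searched with any base in the middle, stood in 16 of 32851 promoters (0.0487%), those of H2-K1, H2-D1 and the class I gene H2-Q6 among them. B2m held the interferon response letters, found in 3.44% of all promoters, and no match to the κB letters. H2-K1 and H2-D1 held no match to the interferon response letters. Sites that depart from the searched letters were not looked for, so a missing match does not show that a promoter lacks such an element. TGACG was found in 20.8% of all promoters and CCAAT on either strand in 37.4%. The Tap1 window held both of these and the Tapbp window held CCAAT alone. These matches describe the letters and are not evidence of binding in these cells.

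Expected counts, the number of reads that RSEM assigned to a gene, summed to between 8648751 and 21433841 per library. Cd163 was at 0 or 1 count in CD163KO macrophages and at 748 to 5275 in WT macrophages, whereas in microglia it did not separate the genotypes (5 to 23 counts in CD163KO, 0 to 101 in WT). Both libraries of WT males given PFF and both of CD163KO males given MONO stood apart. Their 10 highest genes held 28.3% and 29.1% of the FPKM in macrophages (47.0% to 68.0% in the other 6) and 70.0% and 60.6% in microglia (23.6% to 26.1% in the other 6). Since Cd163 did not separate the genotypes in microglia, whether these 2 microglia libraries carry each other's labels could not be checked, and this bears on the treatment and genotype comparisons that use WT males given PFF. The microglia library labelled CD163KO female MONO held 799 counts of Y-linked genes, against 0 to 2 in the other female libraries and 350 to 6545 in males. Microglia markers followed the gates, since the median FPKM of 10 such genes was 1045 to 1364 in microglia libraries and 23.6 to 103 in macrophage libraries. The macrophage libraries also held transcripts of other cells, with 0 to 6 of 8 T and NK cell genes and none of 10 neutrophil genes at 0. Their summed FPKM of 10 neutrophil genes was 22080 to 134400 (946 to 2706 in microglia), that of 8 border-associated macrophage genes 1520 to 4498 (10.2 to 123), that of 6 monocyte genes 301 to 2991 (7.54 to 84.3) and that of 8 T and NK cell genes 41.5 to 194 (0.26 to 5.91).

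Class I transcripts covered a wide range of levels, which are given as FPKM (expected counts scaled to transcript length and library total) and can be compared between genes. B2m was the most abundant of the 7 genes in all 16 libraries, followed by H2-D1, H2-K1 and Tapbp in this order, and Nlrc5 was the lowest in all 16. Among all genes of a library, B2m ranked between place 11 and 24, H2-D1 between 22 and 122, and H2-K1 between 42 and 216. Nlrc5 ranked between place 3457 and 9626. Tap1 and Tap2 changed places. Tap2 was above Tap1 in 4 of 8 microglia libraries and in 1 of 8 macrophage libraries, that of CD163KO males given MONO.

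The light chain and the heavy chains were each lower in microglia than in macrophages. B2m was between 3152 and 6083 FPKM in macrophages (median 5211, SD 1038, n = 8) and between 2267 and 3095 in microglia (median 2555, SD 283, n = 8). H2-D1, one of the heavy chains that load peptides for CD8 T cells, was between 1395 and 3589 FPKM in macrophages (median 2127, SD 828) and between 329 and 1293 in microglia (median 718, SD 335). The 8 libraries of each population did not overlap in H2-D1 and in B2m, where the highest microglia library (3095) lay just under the lowest macrophage library (3152). H2-K1, the other classical heavy chain of this strain, was between 503 and 1293 FPKM in macrophages (median 787, SD 272) and between 200 and 546 in microglia (median 400, SD 122). The ranges of H2-K1 overlapped only between 503 and 546 FPKM, where 1 library of each population lay. In macrophages the ranges of H2-K1 and H2-D1 did not overlap, and in microglia they did.

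The transporter, tapasin and Nlrc5 did not separate the populations in this way. Tapbp was between 67.8 and 234 FPKM in macrophages (median 85.4) and between 75.3 and 240 in microglia (median 204). Tap1 was between 8.6 and 55.4 FPKM in macrophages (median 14.5) and between 7.18 and 38.7 in microglia (median 29.6), and Tap2 was between 3.31 and 40.5 FPKM (median 5.66) and between 3.95 and 47.2 (median 28.4). Nlrc5 was between 0.87 and 21.8 FPKM in macrophages (median 1.43) and between 0.32 and 4.57 in microglia (median 2.47). For these genes the median was higher in microglia on this scale while the ranges overlapped.

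**Figure D1:**
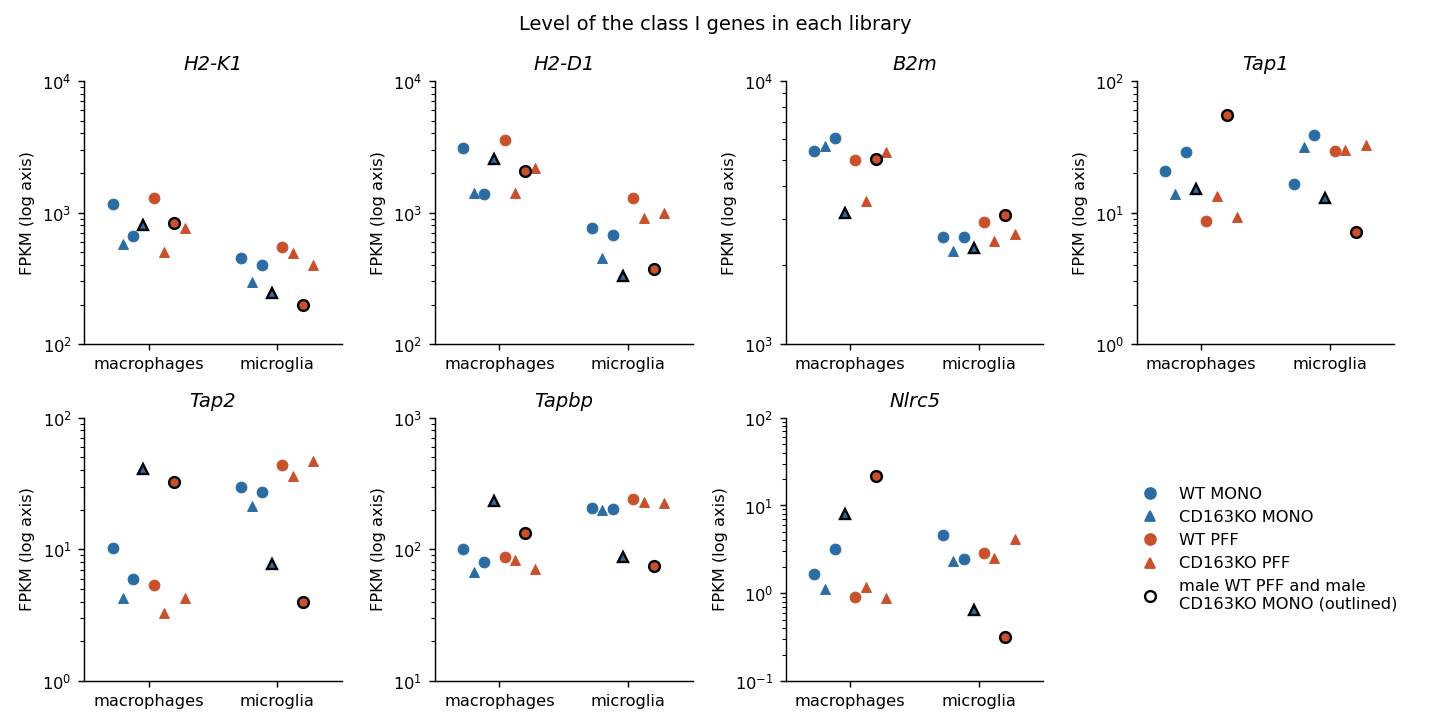
FPKM (log axis) of each of the 7 genes in the 8 macrophage and 8 microglia libraries, 1 point per library, coloured by treatment and shaped by genotype, with both WT males given PFF and both CD163KO males given MONO outlined. H2-D1 and, by a narrow gap, B2m show no overlap between the populations, and the outlined libraries lie at the edge of, or outside, the other points of their population for Tap2, Tapbp and Nlrc5.

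The libraries that stood apart held many of the extreme values. Tap2 was at 32.7 FPKM in WT males given PFF and 40.5 in CD163KO males given MONO in macrophages, against 3.31 to 10.3 in the other 6, and at 3.95 and 7.71 in their microglia, against 21.4 to 47.2. Tapbp was at 134 and 234 FPKM in these macrophages against 67.8 to 101 in the other 6, and at 75.3 and 86.9 in these microglia against 198 to 240. Nlrc5 was at 21.8 and 8.05 FPKM in these macrophages against 0.87 to 3.19, and at 0.32 and 0.65 in these microglia against 2.34 to 4.57. Among the abundant genes, these microglia held the lowest H2-D1 (370 and 329 FPKM) and H2-K1 (200 and 246), and B2m had its lowest macrophage value in CD163KO males given MONO (3152) and its highest microglia value in WT males given PFF (3095). Tap1 was at 55.4 and 15.2 FPKM in these macrophages, the second value being within the range of the other 6. Low shares of the 10 highest genes in macrophages and high shares in microglia thus went with high and low FPKM of Tap2, Tapbp and Nlrc5. The part of library composition in their values was not tested.

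To compare the populations, the 7 groups of sex, genotype and treatment that were kept were used as matched pairs and counts were fitted with TMM factors, which scale libraries so that most genes differ as little as possible. H2-K1, H2-D1, B2m and Tap1 were lower in microglia and passed the test, and Tap2, Tapbp and Nlrc5 did not pass it. The log2 difference, microglia minus macrophages, was -2.93 ± 0.48 (SE) for H2-D1 (edgeR's quasi-likelihood test, Benjamini-Hochberg adjusted p = 0.00143). For edgeR, SE is here the size of the log2 difference divided by the square root of the F value of its test. It was -2.48 ± 0.43 for H2-K1 (edgeR, adjusted p = 0.00191) and -2.49 ± 0.58 for B2m (edgeR, adjusted p = 0.0104). It was -0.95 ± 0.24 for Tap1 (edgeR, adjusted p = 0.0155). Nlrc5 had a log2 difference of -1.14 ± 0.55 (edgeR, adjusted p = 0.177), Tapbp of -0.31 ± 0.25 (adjusted p = 0.404) and Tap2 of 0.47 ± 0.40 (adjusted p = 0.438). Of the 10987 genes tested, 22.8% were called. Called lower in microglia were 14.3% of genes and 4 of the 7 class I genes, and called higher were 8.46% of genes and none of the 7. Since these are bulk samples, fewer cells of a type and less RNA per cell cannot be told apart.

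The size of these differences depended on the scaling. With TMM factors the median log2 difference of all genes tested was 0.28, and with library totals alone it was 1.94, so that a gene at the middle of all genes would seem higher in microglia. With library totals alone 53.7% of genes were called, 49.3% higher and 4.37% lower in microglia, and H2-K1, H2-D1 and B2m were still called lower, at -1.05, -1.49 and -0.95. Tap1 turned to 0.59 and was not called there, Nlrc5 turned to 0.68 and was not called, and Tapbp turned to 1.13 and was called higher, as was Tap2 at 2.18. Taken relative to the median of all genes, the order of the 7 genes was nearly the same on both scales. Over 17 settings, the reported one and 16 alternatives, the log2 distance from this median was -3.47 to -2.72 for H2-D1, -3.02 to -2.28 for H2-K1, -3.05 to -2.18 for B2m and -1.51 to -0.81 for Tap1. It was -1.67 to -0.78 for Nlrc5, -0.86 to -0.14 for Tapbp and -0.09 to 0.75 for Tap2. H2-K1, H2-D1 and B2m were called lower in microglia under all 16 alternatives, with adjusted p of 3.63e-10 to 0.0402, and Tap1 under 10, with 0.00258 to 0.535 (edgeR, DESeq2 or limma). Without the pair of WT males given PFF, 4779 genes were called in place of 2501, and Tap2 was called higher in microglia, at 0.76.

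**Figure D2:**
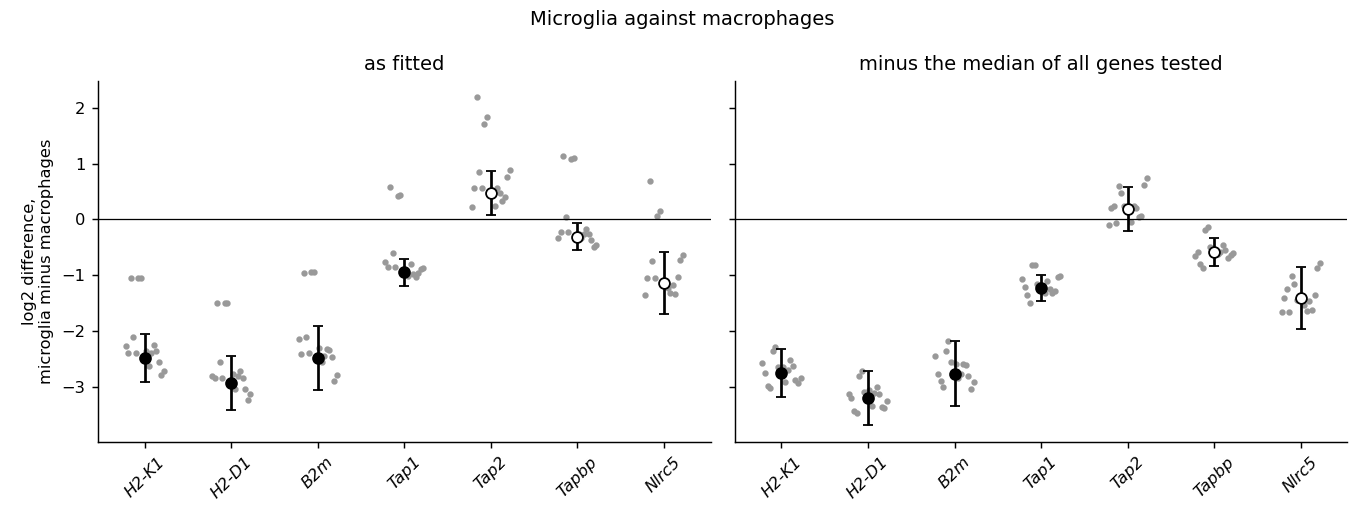
Log2 difference, microglia minus macrophages, of the 7 genes as fitted (left) and after subtraction of the median of all genes tested (right). Large points with bars are the value and its SE (derived from the F value of the test) over 7 matched pairs, filled where called (adjusted p of at most 0.05). Grey points are the 16 alternatives. All genes but Tap2 lie below the median of all genes under all alternatives, Nlrc5 and Tapbp without being called in the reported fit, and Tap2 lies on both sides of it.

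Single libraries gave the same order for the heavy chains. H2-D1 was lower in the microglia library of all 7 pairs, both on FPKM (differences of -2.49 to -0.63) and on FPKM divided by the TMM factor, called TMM-scaled FPKM (-3.59 to -0.84). H2-K1 was lower in all 7 pairs as well, by -2.07 to -0.03 on FPKM and -3.36 to -0.42 on TMM-scaled FPKM. B2m was lower in 7 of 7 pairs on FPKM (-1.32 to -0.49) and in 6 of 7 on TMM-scaled FPKM, the exception being WT males given PFF, at 0.95. Over the 7 libraries of each population, groups of FPKM that did not overlap were found for H2-D1 and B2m, beside 10.4% of all genes tested (2.75% lower in microglia), and on TMM-scaled FPKM for H2-K1 and H2-D1, beside 17.8% (7.43% lower in microglia). The neutrophil, monocyte and border-associated transcripts given above differed between the populations as well, and their part in the class I difference was not tested.

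Ratios between class I genes of the same library do not depend on how libraries are scaled. They were chosen after the values were seen, 6 ratios in 7 comparisons, and p-values were adjusted over these 42 tests. Both heavy chains over tapasin, H2-K1 plus H2-D1 over Tapbp, were at 21.8 to 55.7 in macrophages (median 29.5) and at 3.78 to 7.66 in microglia (median 6.09). The ratio was lower in microglia in 7 of 7 pairs, with a mean log2 difference of -2.45 (SD 0.55, two-sided exact permutation p = 0.0156, the smallest that 7 pairs allow, adjusted p = 0.328). Tap2 over Tap1, the balance of the subunits of the transporter, was at 0.205 to 0.628 in macrophages and 0.550 to 1.79 in microglia. It was higher in microglia in 6 of 7 pairs, by a mean of 1.41 (SD 0.77, two-sided exact permutation p = 0.0312, adjusted p = 0.328), and with CD163KO males given MONO, whose macrophages were at 2.67, the exact p was 0.109. H2-D1 over H2-K1 was at 2.08 to 2.85 in macrophages and 1.53 to 2.46 in microglia, lower in 7 of 7 pairs by a mean of -0.44 (SD 0.21, exact permutation p = 0.0156, adjusted p = 0.328). None of the 42 tests passed after adjustment. H2-K1 and H2-D1 share sequence (8.79% of the 50-base windows of H2-K1 and 14.3% of those of H2-D1 also occur in other genes), and none of their transcripts had a whole-number count in any library, so the split of reads between them is uncertain.

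**Figure D3:**
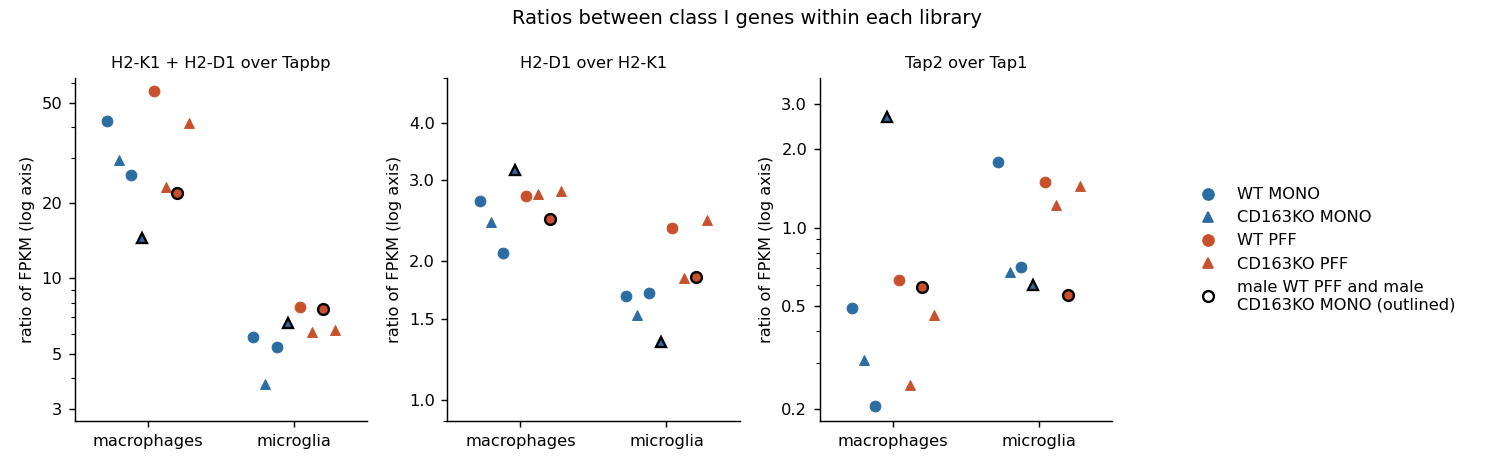
Ratios of FPKM within each library (log axes) for H2-K1 plus H2-D1 over Tapbp, H2-D1 over H2-K1 and Tap2 over Tap1, 1 point per library with the colours and shapes of the plot of levels. The heavy chains over tapasin lie between 14.4 and 55.7 in the 8 macrophage libraries and between 3.78 and 7.66 in the 8 microglia libraries.

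The rest of the pathway was followed in 6 lists, 68 genes in all. Of the other class I heavy chains, 12 of 18 were tested, 6 were lower in microglia, 2 were higher and 4 were not called, with a median log2 difference of -1.15 beside 0.28 over all genes. H2-T23, which encodes the Qa-1 ligand of NKG2A receptors, was lower at -2.04 ± 0.57 (edgeR, adjusted p = 0.0254) and was called in 7 of 17 settings. H2-Q7 and H2-Q10 were lower at -2.62 ± 0.47 and -7.45 ± 0.68 (edgeR, adjusted p = 0.00251 and 3.87e-05). H2-T22 and H2-M3 were lower at -1.34 and -0.96. H2-M2 was called lower too, with levels of 0 to 2.29 FPKM in macrophages and 0 to 1.69 in microglia, and was called in 6 of the 12 settings that tested it. H2-Q4 was higher in microglia at 1.60 ± 0.45 (edgeR, adjusted p = 0.0278), with FPKM of 24.7 to 261 against 3.87 to 18.9. Mr1, which presents vitamin B metabolites to MAIT cells, was higher at 1.92 ± 0.60 (edgeR, adjusted p = 0.0411). H2-Q4 and Mr1 lay above the median of all genes under all alternatives, by 1.07 to 1.73 and 1.10 to 2.05, and were called in 13 and 10 of 17 settings. By these values the heavy chains did not all move one way. Class I genes share sequence, as H2-D1 does with H2-Q1 (7.40% of the windows of H2-D1), and RSEM splits such reads. Shared sequence was not measured for the genes of this list. Its part in the values of the H2-Q genes was not tested.

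Of 13 genes that supply peptides, 6 were called lower in microglia, 1 was called higher and 6 were not called (median -0.93), and 8 lay below the median of all genes. The immunoproteasome subunits Psmb8 and Psmb9 were lower at -1.47 ± 0.31 and -1.26 ± 0.28 (edgeR, adjusted p = 0.00603 and 0.00765), and the subunits of the PA28 activator, Psme1 and Psme2, at -1.50 ± 0.20 and -1.49 ± 0.26 (adjusted p = 0.000363 and 0.00207). Psmb5 and Psmb6, subunits of the constitutive proteasome, were lower too, at -0.93 and -1.35. The aminopeptidase Lap3 was higher at 1.32 ± 0.34 (edgeR, adjusted p = 0.0193). With library totals alone, none of the 13 was called lower and 5 were called higher (49.3% of all genes were), while their median relative to all genes was -1.40, against -1.21 with TMM factors.

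Loading and trimming genes of the endoplasmic reticulum, such as Calr, Canx and Pdia3, had a median of 0.24, near that of all genes, with 0 of 7 lower and 1 higher. The 1 called was Erap1, the aminopeptidase that trims peptides to length, at 1.16 ± 0.35 (edgeR, adjusted p = 0.0354, called in 10 of 17 settings). The members went both ways, since relative to the median of all genes Erap1 lay at 0.54 to 1.28 and the chaperone Hspa5 at -1.48 to -0.70 over 17 settings. Without the pair of WT males given PFF, 3 of the 7 were called lower and 2 higher. Calls were more frequent among all genes there too, with 4779 called in place of 2501. The median of 19 transcription factors and interferon signalling genes was -0.10. Irf1, the Rfx and Nfy genes of the X and Y box complexes and the receptors Ifngr1 and Ifnar1 were not called. With library totals alone 4 of the 7 loading genes and 10 of the 19 factors were called higher in microglia, near the 49.3% of all genes.

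Class II genes present peptides taken up from outside the cell. All 7 tested were called lower in microglia, and Cd74, the invariant chain, was at 79.5 to 661 FPKM in microglia and 19370 to 112600 in macrophages. Cd74, H2-Aa, H2-Ab1 and H2-Eb1 had log2 differences of -8.76, -8.75, -9.46 and -8.01, and the peptide exchange factors H2-DMa and H2-DMb1 of -2.21 and -2.81, both smaller in size than that of H2-D1. Ciita, the transactivator of class II, was at 0 to 0.29 FPKM in microglia and 2.59 to 26.7 in macrophages, and its fitted difference, which is also the median of the list (-8.74), ran from -9.57 to -2.28 over 17 settings. Of 4 paired Ig-like receptors of myeloid cells, from the Pir and Lilr families, all were called lower. Pirb is a known receptor of class I, and for Lilrb4a and Lilra5 binding of class I is not taken as known here. Pirb, an inhibitory receptor of class I, was at 6.08 to 33.8 FPKM in microglia and 30.5 to 261 in macrophages (log2 difference of -2.75 ± 0.26, edgeR, adjusted p = 4.13e-05). Lilra5 and Lilrb4a had differences of -2.73 and -5.42. Pira2 was at 0 to 1.09 FPKM in microglia and 2.51 to 58.7 in macrophages, and its fitted difference ran from -8.09 to -2.73 over 17 settings. With library totals alone, 6 of 7 class II genes and 2 of 4 receptors were called lower.

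**Figure D4:**
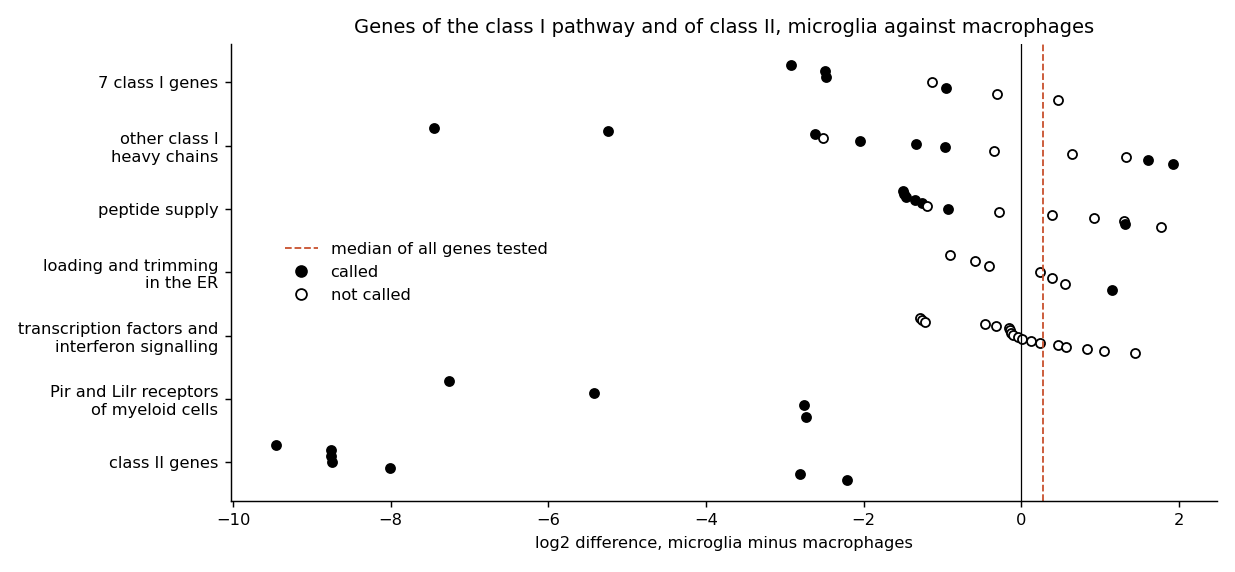
Log2 difference, microglia minus macrophages, of the 7 class I genes and of the genes tested from 6 pathway lists, 1 point per gene, filled where called (1 list gene is not shown). The dashed line is the median of all genes tested (0.28). Peptide supply spreads to both sides of it, and class II genes and Pir and Lilr receptors all lie below -2.

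Within macrophages, none of the 7 genes was called for PFF against MONO, and none of the 6001 genes tested was called (0.0%). At an unadjusted p under 0.05 there were 140 genes (2.33%), with none of the 7 among them, and DESeq2 called 71 genes, none of the 7 among them. The log2 difference, PFF minus MONO, was 0.73 ± 0.69 (SE) for H2-K1, 0.94 ± 0.83 for H2-D1 and 0.11 ± 0.75 for B2m. H2-D1 was at 1411, 2081, 2173 and 3589 FPKM under PFF and at 1395, 1416 and 3120 under MONO, so the groups overlapped. B2m was at 3487, 5003, 5044 and 5379 FPKM under PFF and at 5417, 5651 and 6083 under MONO. These groups of B2m did not overlap, which was so for 3.47% of all genes tested on FPKM (3.3% with PFF lower). On TMM-scaled FPKM the groups of B2m overlapped, at 3483 to 13130 and 6370 to 10670, and in CD163KO males given MONO B2m was at 3152 FPKM, below all other macrophage libraries. The differences of Tap1, Tap2, Tapbp and Nlrc5 were -0.21 ± 0.36, 0.41 ± 0.61, 0.48 ± 0.42 and 0.43 ± 0.67.

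In microglia, H2-D1 had the lowest p of the 7 genes between PFF and MONO, and it was not called. On TMM-scaled FPKM it was at 548, 602, 783 and 802 in the 4 PFF libraries and at 265, 383 and 421 in the 3 MONO libraries, all PFF libraries being above all MONO libraries, and CD163KO males given MONO were at 385. The log2 difference was 1.08 ± 0.45, with a p of 0.0397 before adjustment and an adjusted p of 0.654 (edgeR's quasi-likelihood test). An unadjusted p under 0.05 was reached by 669 of 9186 genes (7.28%), and 0.0% were called. DESeq2 gave a difference of 1.06 ± 0.26 and an adjusted p of 0.0149 for H2-D1, 1 of 116 genes it called (0.648% of those tested), and the adjusted p ran from 0.0149 to 1.0 over 16 alternatives, all of which had H2-D1 higher under PFF. The log2 difference was 0.48 to 1.21 over these alternatives. The matched differences were above 0 in 3 of 3 pairs on TMM-scaled FPKM (0.89 to 1.07) and in 2 of 3 on FPKM, where WT males were at -0.87. On FPKM as deposited the groups overlapped, at 370, 909, 990 and 1293 under PFF and 454, 678 and 758 under MONO, where 370 was the value of WT males.

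B2m and Tapbp likewise had PFF groups above MONO groups on TMM-scaled FPKM in microglia, with B2m at 1491, 1599, 1769 and 6708 against 1323, 1415 and 1449, and Tapbp at 136, 139, 146 and 163 against 114, 115 and 116. Groups that did not overlap were found for these and for H2-D1, 3 of the 7 genes, all higher under PFF, beside 9.47% of all genes tested (4.23% with PFF higher). For all 3 the WT male library, which stood apart, was the highest of the PFF group, and on FPKM none of the 7 had groups without overlap, beside 9.41% of all genes tested. With CD163KO males given MONO, B2m (2709) and Tapbp (102) would put MONO at 1323 to 2709 and at 102 to 116, so that the groups of B2m overlapped and those of Tapbp did not. H2-K1 overlapped, with 244 to 434 under PFF and 173 to 250 under MONO, and its log2 difference was 0.74 ± 0.40. B2m, Tapbp, Tap2, Tap1 and Nlrc5 had differences of 0.82 ± 0.75, 0.41 ± 0.36, 0.51 ± 0.37, 0.10 ± 0.30 and -0.14 ± 0.56. None passed the test. B2m was at 0.18 and 0.22 without WT males given MONO or PFF, and at 1.55 and 1.34 without the library labelled CD163KO female MONO or WT females given PFF. H2-D1 was at 1.12 without the library labelled CD163KO female MONO, which held Y-linked counts, and at 0.89 without WT males given PFF as well.

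The balance between class I genes in microglia also differed by treatment before adjustment. H2-K1 plus H2-D1 over Tapbp was at 6.09, 6.23, 7.57 and 7.66 under PFF and at 3.78, 5.34 and 5.83 under MONO, with a mean log2 difference of 0.48 (two-sided exact permutation p = 0.0286, the smallest that these groups allow, adjusted p = 0.328). With CD163KO males given MONO, at 6.62, the groups overlapped (exact p = 0.114). Without the library of WT males given PFF, the mean log2 difference was 0.43 (exact permutation p = 0.1, the smallest that 3 against 3 libraries allow). The lowest value, 3.78, was that of the library labelled CD163KO female MONO, which held Y-linked counts, and without it the mean difference was 0.30 (exact permutation p = 0.133). H2-D1 over H2-K1 was at 1.84, 1.85, 2.37 and 2.46 under PFF and at 1.53, 1.68 and 1.71 under MONO, with 1.34 in CD163KO males given MONO. Its mean log2 difference was 0.37 (exact p = 0.0857, adjusted p = 0.678), and with all 8 libraries 0.44 (exact p = 0.0286, adjusted p = 0.4).

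**Figure D5:**
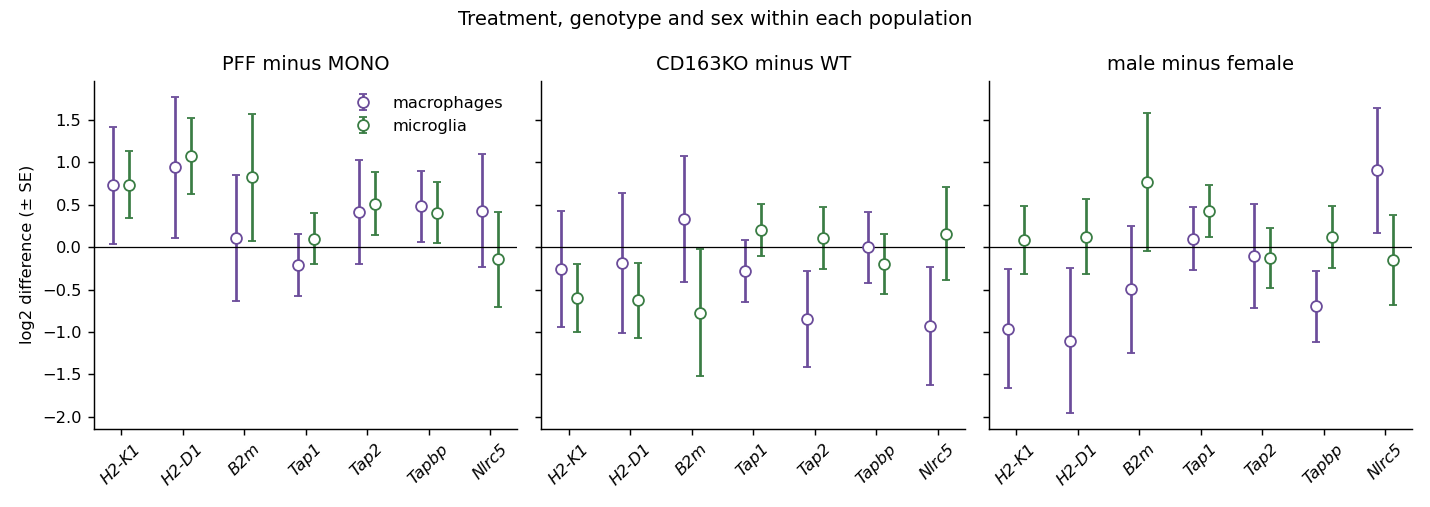
Log2 differences with SE of the 7 genes for PFF minus MONO, CD163KO minus WT and male minus female in macrophages and in microglia, from fits on 7 libraries per population. None was called, and H2-D1 under PFF in microglia (1.08 ± 0.45) has the lowest p before adjustment. SE is derived from the F value of the test, so the ratio of difference to SE says the same as the p.

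CD163KO against WT gave no call among the 7 genes in either population, and none among the genes tested (0.0% of 6001 in macrophages and 0.0% of 9186 in microglia). Those genes had to pass the count filter in every library of the fit. A gene absent from 1 genotype, such as Cd163 in macrophages, was therefore not tested. An unadjusted p under 0.05 was reached by 1.68% and 1.3% of genes and by none of the 7, and DESeq2 called 56 and 64 genes, none of the 7 among them. In macrophages Tap2 was at 3.31, 4.26 and 4.27 FPKM in CD163KO and at 5.40, 5.92, 10.3 and 32.7 in WT. These groups did not overlap, as in 2.22% of all genes tested (1.95% with CD163KO lower), but on TMM-scaled FPKM they did, at 4.88 to 8.81 and 6.20 to 22.6, and CD163KO males given MONO were at 40.5 FPKM, above every other macrophage library. Nlrc5 did not overlap on TMM-scaled FPKM, at 1.75, 1.80 and 2.13 in CD163KO and at 2.15, 2.39, 3.34 and 15.0 in WT, as in 3.98% of all genes (2.4% with CD163KO lower). On FPKM the groups of Nlrc5 overlapped, at 0.87 to 1.19 and 0.91 to 21.8, and on TMM-scaled FPKM CD163KO males given MONO were at 5.55. The log2 differences were -0.85 ± 0.57 for Tap2 and -0.93 ± 0.70 for Nlrc5. With 1 library left out they ran from -1.26 to -0.55 for Tap2 and from -1.71 (without CD163KO females given MONO) to -0.21 (without CD163KO males given PFF) for Nlrc5, which was at -0.39 without WT males given PFF. Those of H2-K1, H2-D1 and B2m were -0.26 ± 0.69, -0.18 ± 0.83 and 0.33 ± 0.74, and those of Tap1 and Tapbp -0.28 ± 0.37 and 0.00 ± 0.42.

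In microglia the heavy chains and B2m had log2 differences below 0 between CD163KO and WT, -0.60 ± 0.40 for H2-K1, -0.63 ± 0.44 for H2-D1 and -0.78 ± 0.75 for B2m, and none was called. H2-D1 was lower in CD163KO in 3 of 3 matched pairs on TMM-scaled FPKM (-0.67 to -0.41) and in 2 of 3 on FPKM. The other genes had differences of 0.21 ± 0.31 for Tap1, 0.11 ± 0.37 for Tap2, -0.20 ± 0.36 for Tapbp and 0.16 ± 0.55 for Nlrc5. The direction of H2-K1, H2-D1 and B2m was kept under all 16 alternatives, but the size depended on the scaling. With library totals alone H2-K1, H2-D1 and B2m were at -0.06, -0.12 and -0.19, where the median of all genes was 0.42 in place of -0.02, and limma on log2(FPKM + 1) put them at -0.04, -0.08 and -0.20. B2m also moved with single libraries, to -0.16 without WT males or without CD163KO males given PFF, and to -1.50 without the library labelled CD163KO female MONO and -1.29 without WT females given PFF. Without the library labelled CD163KO female MONO, H2-K1 and H2-D1 were at -0.70 and -0.66.

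Males and females did not differ by a call in any of the 7 genes, and 0.0% of the genes tested were called in either population. The count filter had left out the Y-linked genes. DESeq2 called 105 genes in macrophages and 87 in microglia, none of the 7 among them. At an unadjusted p under 0.05 there were 2.17% of genes in macrophages and 1.92% in microglia, and none of the 7. In macrophages the log2 difference, male minus female, was -0.96 ± 0.70 for H2-K1, -1.10 ± 0.85 for H2-D1, -0.70 ± 0.42 for Tapbp and -0.50 ± 0.75 for B2m. Single libraries decided their size, since H2-K1 was at -0.03, H2-D1 at -0.21 and Tapbp at -0.23 without WT females given PFF, and at -2.14, -2.40 and -1.23 without CD163KO males given PFF. H2-D1 was at 1395, 2081 and 2173 FPKM in males and at 1411, 1416, 3120 and 3589 in females, and the groups overlapped. Nlrc5 had a difference of 0.91 ± 0.74, with 0.87, 3.19 and 21.8 FPKM in males against 0.91, 1.13, 1.19 and 1.67 in females, where 21.8 was the value of WT males given PFF. In microglia the differences lay between -0.16 ± 0.53 (Nlrc5) and 0.77 ± 0.82 (B2m), and B2m was at 0.02 without WT males given PFF, at 0.05 without WT females given PFF, and at 1.37 and 1.35 without WT males given MONO and CD163KO males given PFF. The library labelled CD163KO female MONO, counted with the females, held more Y-linked counts (799) than 2 of the male microglia libraries (434 and 515), which goes against its label, and without it the differences lay between -0.38 (Nlrc5) and 0.77 (B2m).

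Whether effects differed between populations or genotypes was tested with interaction terms. None of the 7 genes and none of the genes tested was called for the difference between the populations in the PFF, CD163KO or male effect (0.0% of 10987 each), or for the interaction of CD163KO with PFF in macrophages (0.0% of 6001) or microglia (0.0% of 9186). At an unadjusted p under 0.05 there were 1.02%, 0.737%, 1.16%, 1.95% and 4.64% of genes in these 5 tests. For H2-D1 the PFF effect in microglia minus that in macrophages was 0.41 ± 1.06.

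Within populations, H2-K1, H2-D1 and Tapbp had the most similar patterns among the 7 genes. After subtraction of the population mean, Pearson's r of log2(TMM-scaled CPM + 1) over 14 libraries was 0.97 for H2-K1 with H2-D1, 0.94 for H2-D1 with Tapbp and 0.93 for H2-K1 with Tapbp. B2m followed them less closely (0.75 with H2-K1), and Nlrc5 had negative values with H2-K1 (-0.49) and B2m (-0.66) and a positive one with Tap2 (0.70). Among 10987 genes, those most like H2-K1 were Arpc1b (0.92), a subunit of the actin-nucleating Arp2/3 complex, Inf2 (0.91) and Ly6e (0.91), and those most like H2-D1 were Arpc1b (0.94), Inf2 (0.91) and Syngr2 (0.91). Tapbp was nearest to Arpc1b (0.95), the class I gene H2-Q9 (0.91) and Grn (0.91). B2m was nearest to Itm2b (0.97), Cst3 (0.96) and Rnaset2b (0.96). For Tap1 these were Gm14288 (0.91), Gfm1 (0.86) and Slc30a6 (0.86), for Tap2 they were Nelfa (0.95), Themis2 (0.94) and Nfam1 (0.90), and for Nlrc5 2610507B11Rik (0.97), Naaa (0.95) and Chkb (0.95). These values are descriptions, since the libraries share depth and composition and the WT males given PFF stand apart in both populations.

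More than 1 transcript was listed for H2-K1, Tap1 and Tapbp. Both listed transcripts of Tapbp were present, the more abundant one with 50.7% to 74.5% of its expected counts in macrophages and 51.6% to 62.5% in microglia. The second transcript of Tap1 took 0.0% to 65.5% in macrophages and 0.0% to 73.8% in microglia, with medians of 1.51% and 0.0%. H2-K1 was almost wholly 1 transcript (88.2% to 100% in macrophages), and H2-D1, B2m, Tap2 and Nlrc5 had 1 transcript each.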

How the data were processed

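Libraries were made by the SMART-seq2 protocol from FACS-sorted cells and sequenced on a BGI platform. The authors removed rRNA and low-quality reads, mapped the rest with Bowtie2 and quantified RefSeq transcripts with RSEM (versions not given in the sources used here, build mm10), and deposited for each library the expected count of each transcript, which RSEM estimates by sharing ambiguous reads, and its FPKM, the expected count scaled to transcript length and library total. Only transcripts above 0 are listed.

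RefSeq identifiers were mapped to symbols (27632 of 27787, 99.44%), and both quantities were summed per symbol, with unlisted transcripts at 0. Rounded sums were tested with edgeR's quasi-likelihood test (edgeR 4.0.16, limma 3.58.1, R 4.3.3) with TMM factors, filterByExpr and Benjamini-Hochberg adjustment over all genes tested, and a gene was called at an adjusted p of at most 0.05. Fits within a population had terms for treatment, genotype and sex over 7 libraries, and the population fit was matched by group over 14. Within a population the filter asked for enough counts in all 7 libraries, so genes absent from a whole group were not tested there. p-values measure the spread between single libraries of different groups. The SE of an edgeR value was derived from its log2 difference and F value, and that of DESeq2 was its own estimate. Alternatives were all 16 libraries, RLE or no scaling, no filter, DESeq2 1.42.0, limma on log2(FPKM + 1) or log2(FPKM + 0.1), a rule asking also for a log2 difference of 1, a fit with 2 suspect samples left out, and leaving out each library. Ratios of FPKM were compared with exact permutation tests (scipy 1.17.1).

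The genes and lists were chosen with earlier results of these data known. Beside the 7 genes, the text names list genes that were called and genes that define a list, and 1 list gene is not reported here. Promoter sequences and coordinates are those of RefSeq and GENCODE tables for GRCm38.p6. Batches are mentioned in the study and not assigned in the labels, so batch and group cannot be told apart.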

Additional observations from a re-analysis of the deposited data

Results flagged for a closer look

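Among 14 sets of 8 libraries, 1 for each gene and population, 3 had a highest library far from the rest by Dixon's criterion (gap over range above 0.526 for 8 libraries). The criterion's rate of about 1 in 20 sets holds for independent, normally distributed sets. It does not apply here, since the genes were measured in the same libraries. Tap1 was at 55.42 FPKM in macrophages of WT males given PFF (gap over range 0.566), Nlrc5 was at 21.78 FPKM in the same library (0.657), and Tapbp was at 234.0 FPKM in macrophages of CD163KO males given MONO (0.601). Both libraries are those whose 10 highest genes held the lowest shares of FPKM among macrophages, 28.3% and 29.1%.

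The differences of Tap1 between CD163KO and WT had opposite signs in the populations on TMM-scaled FPKM. They were below 0 in 3 of 3 matched pairs of macrophages (-1.0 to -0.04, median -0.20) and above 0 in 3 of 3 pairs of microglia (0.02 to 1.01, median 0.35), which put the medians 0.545 apart. The microglia pair at 1.01 holds the library labelled CD163KO female MONO, with Y-linked counts against its label, the pair at 0.35 holds WT males given PFF, whose libraries stood apart, and the remaining pair was at 0.02. The difference was not tested on this scale. In the interaction fit on counts Tap1 was not called, and with CD163KO males given MONO a microglia pair was at -0.54.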

How the results depend on the processing

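H2-K1, H2-D1 and B2m kept their direction and their call between the populations under all 16 alternatives. Of 112 values of the 7 genes in that comparison under alternatives, 94 kept direction and side of the threshold, 5 gained a call, 3 lost one and 10 changed direction. No scaling beyond the library total put Tap1, Tapbp and Nlrc5 at 0.59, 1.13 and 0.68, limma on log2(FPKM + 1) at 0.42, 1.09 and 0.068, limma on log2(FPKM + 0.1) at 0.44, 1.09 and 0.15, and no filter put Tapbp at 0.047. In these cases, as in all below, the cause was not tested.

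Within populations nearly all values were uncalled throughout, and changes of direction were between uncalled values. In macrophages, no scaling and both limma fits (pseudocounts 1 and 0.1) gave B2m -0.31, -0.31 and -0.31 for PFF, -0.11, -0.092 and -0.092 for CD163KO, and 0.23, 0.23 and 0.23 for males. For males they gave Tap2 0.73, 0.51 and 0.55, and Tapbp 0.0051, 0.0005 and 0.0001, and no filter gave Tap2 0.015. RLE factors gave Tapbp 0.0043 for CD163KO. With all libraries, Tap1 was at 0.095 and Tap2 at -0.25 for PFF, Tapbp at 0.16 for CD163KO, and Tap1 at -0.26 and Tap2 at 0.56 for males. In microglia, no scaling and both limma fits gave Tap1 -0.38, -0.44 and -0.47 and Tapbp -0.14, -0.19 and -0.19 for PFF, and Tapbp 0.30, 0.34 and 0.35 for CD163KO. The limma fits gave Tap2 -0.084 and -0.13 for PFF. For males, no scaling and both limma fits gave H2-K1 -0.44, -0.48 and -0.48, H2-D1 -0.35, -0.44 and -0.44, Tap1 -0.0086, -0.095 and -0.11, and Tapbp -0.38, -0.45 and -0.45. With all libraries Nlrc5 was at 0.12 for PFF and -0.055 for CD163KO. Without WT males given PFF and the CD163KO female MONO library, an alternative chosen after seeing the data, Tap1 and Tap2 were at -0.22 and -0.14 for CD163KO, and H2-K1, H2-D1, Tap2 and Tapbp at -0.23, -0.012, 0.14 and -0.036 for males.

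Leaving out 1 library at a time moved the following uncalled values across 0. In macrophages, PFF ranged from -0.57 to 1.01 for H2-K1, -0.35 to 1.24 for H2-D1, -1.11 to 0.36 for B2m, -0.29 to 0.82 for Tap2, -0.11 to 0.67 for Tapbp and -0.18 to 1.21 for Nlrc5, CD163KO from -1.45 to 0.68 for H2-K1, -1.49 to 0.70 for H2-D1, -0.55 to 1.31 for B2m and -0.53 to 0.49 for Tapbp, and males from -1.38 to 0.46 for B2m, -0.020 to 0.23 for Tap1 and -0.50 to 0.58 for Tap2. In microglia, PFF ranged from -0.13 to 0.37 for Tap1 and -0.62 to 0.21 for Nlrc5, CD163KO from -0.031 to 0.47 for Tap1, -0.34 to 0.50 for Tap2 and -0.56 to 0.70 for Nlrc5, and males from -0.23 to 0.32 for H2-K1, -0.013 to 0.28 for H2-D1, -0.62 to 0.17 for Tap2, -0.050 to 0.28 for Tapbp and -0.92 to 0.12 for Nlrc5.

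Counts of genes called depended on the tool. Between the populations they were 5895 with no scaling, 4923 with DESeq2, 5143 and 5095 with limma, 4353 without the libraries left out together above, and 1821 to 4779 with 1 pair left out, the highest without WT males given PFF. For PFF, CD163KO and males in macrophages, DESeq2 called 71, 56 and 105 genes, limma 1 and 4, 4 and 5, and 6 and 9, no filter 1 gene each for CD163KO and males, no scaling 2 for males, and leaving out 1 library 0 to 2, 0 to 1 and 0 to 1, each highest without WT males given PFF. In microglia DESeq2 called 116, 64 and 87 genes (1 of the 7, H2-D1, for PFF), no filter 11, 19 and 6, and limma 1 and 1 for PFF and 4 and 3 for males. Median levels on TMM-scaled FPKM were 6666 for B2m in macrophages, and 1545 for B2m, 269 for H2-K1, 17.9 for Tap1 and 126 for Tapbp in microglia, where the most abundant transcript of Tapbp alone was at 115. The labels number no replicates, so no replicate number could serve as a block, and the pairs used here are groups of the same sex, genotype and treatment. Totals of 8648751 to 21433841 expected counts left all 7 genes above 0 in every library, and with single libraries per group each fit within a population had 3 residual degrees of freedom.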

Other observations

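The other pathway lists held no called gene for PFF, CD163KO or sex in either population (edgeR's quasi-likelihood test). In microglia under PFF, where H2-D1 had the lowest p of the 7 class I genes, the median log2 difference of the 7 class I genes was 0.51, beside 0.05 over all 9186 genes tested and 0.59 over the 6 class II genes tested. H2-DMb1 of class II was at 0.99 and the transcription factor Atf1 at -1.01 there, with p of 0.0326 and 0.0211 before adjustment (edgeR, adjusted p = 0.654 for both), lower than that of H2-D1.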
